A study of Homo sapiens with 13 samples.

Results

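The genes described here are REST, 2 splicing factors related to it (SRRM4 and SRRM3), its corepressor genes RCOR1, RCOR2, RCOR3, KDM1A and SIN3A, and the splicing repressors PTBP1 and PTBP2. They are 10 of the 20007 protein-coding genes of GENCODE release 44 (hg38), chosen by name as a pathway. No measured value set the choice, but earlier results of these data were known when it was made. Chromatin accessibility was measured by ATAC-seq, in which a transposase cuts open DNA, in H82 and H146, 2 established small cell lung cancer lines. H82 is of the NEUROD1 subtype, and both lines are neuroendocrine. H82 was represented by 3 untreated samples and by 3 samples treated with FHD-286, an inhibitor of the SMARCA4 and SMARCA2 ATPases, at 100 nM for 14 days. H146 was represented by 4 untreated samples and 3 treated in the same way, with 3 of the untreated samples sequenced in a separate batch from the rest.

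REST is a zinc finger repressor that binds the RE1 element and silences neuronal genes in cells that are not neurons. It recruits RCOR1 (CoREST) with the histone demethylase KDM1A (LSD1) through its C-terminal repressor domain and SIN3A through its N-terminal domain. SRRM4 promotes inclusion of the neural exon N3c into REST transcripts, which yields the truncated form REST4, and REST in turn is known to repress SRRM4. SRRM3 is a paralog of SRRM4 that also activates neural microexons, while PTBP1 represses many neural exons and gives way to its paralog PTBP2 in neurons.

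The elements through which REST acts on DNA, and the exon through which SRRM4 acts on REST, were located first. The hg38 sequence was searched on both strands for the RE1 as TTCAGCACC, then 2 free bases, then GGACAGCGC, allowing up to 3 mismatches in the 18 fixed bases. The 5 matches in the genes and the 50 kb to either side are shown because the RE1 is the element that REST binds, with capitals for each base that matches the RE1 and lower case for mismatches and free bases. They lie at chr12:118981833-118981852 (SRRM4, plus strand, centred 0.302 kb from the start, in the untranslated part of exon 1), chr12:119061401-119061420 (SRRM4, plus strand, intron 1), chr7:76225551-76225570 (SRRM3, minus strand, intron 1), chr4:56878819-56878838 (upstream of REST, minus strand) and chr1:96687673-96687692 (upstream of PTBP2, plus strand). The last sequence is the N3c exon of REST at chr4:56927615-56927664, plus strand, with capitals for the 9 bases that the study's reverse REST4 primer covers before it crosses into the next exon.
SRRM4 exon 1: TTCAGCACtttGGACAGCGC
SRRM4 intron 1: TTCAGCACCagGGACAGCGa
SRRM3 intron 1: TcCAGCACCacGGACAGCaC
REST upstream: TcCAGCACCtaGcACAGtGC
PTBP2 upstream: TTCAGgACCtaGcAtAGCGC
REST exon N3c: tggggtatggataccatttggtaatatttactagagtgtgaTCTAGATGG

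The authors deposited 1 list of accessible regions for each line, pooled over its untreated and treated samples, so an effect of FHD-286 could not be tested and no value has a replicate error. H82 had 206927 regions covering 5.41% of the genome and H146 had 174093 covering 4.49%, and read depth was unknown. The lists were not independent of each other. Across the genome 35829 regions had exactly the same start in both lines and 35862 exactly the same end. By comparison, 378 starts and 159 ends lay 1 base higher in H82 than in H146, and the other direction was not counted. Either boundary was identical for 25.3% of all H82 regions and 29.99% of all H146 regions, and for 44 of 246 and 43 of 180 regions around the 10 genes; the cause was not tested. Among marker genes, the transcription start site (TSS) of NEUROD1 had an H82 region within 1 kb and no H146 region. The leukocyte gene PTPRC had none in either line, but the fibroblast and endothelial genes COL1A1 and PECAM1 had TSS regions in both, so a TSS region did not by itself mark a cell type.

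The REST gene lay at chr4:56907876-56966808 on the plus strand and was similarly covered in both lines. A region of 2797 bp in H82 and 2643 bp in H146 lay over its TSS. Within the gene body and 50 kb to either side, regions covered 8.03% in H82 and 8.17% in H146, and REST was the only one of the 10 genes with the larger covered share in H146. That difference of -0.14 percentage points turned to 0.90 points higher in H82 with 10 kb flanks. H82 had 14 regions in this window and H146 had 15, of which 12 in each line overlapped a region of the other line by at least 1 bp. The regions found in 1 line stood on opposite sides of the TSS. The 2 H82-only regions lay 44.6 and 47.5 kb downstream of the TSS, inside a long annotated REST transcript, and the 3 H146-only regions upstream, at -23.01, -11.6 and -10.5 kb. All 5 were short, the widest measuring 297 bp in H82 and 439 bp in H146.

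No region of either line lay over exon N3c, which is in 3 of the 12 annotated REST transcripts and is 50 bases long, 19.7 kb from the TSS. The nearest region was 3157 bases further on in both lines, at chr4:56930822-56931083, a stretch of 262 bp inside the last coding exon. Its start and end were the same to the base in the lists of both lines. The RE1 match upstream of REST was in no region either, with the nearest regions 4025 bases away in H82 and 3995 in H146. Of 7 distinct annotated transcript starts of REST, 5 were in a region, and these were in regions of both lines.

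The bases just upstream of REST are shown because an accessible region covered them in both lines (RefSeq, GRCh38.p14, chr4:56907650-56907899, plus strand, CpG dinucleotides in capitals).
REST promoter: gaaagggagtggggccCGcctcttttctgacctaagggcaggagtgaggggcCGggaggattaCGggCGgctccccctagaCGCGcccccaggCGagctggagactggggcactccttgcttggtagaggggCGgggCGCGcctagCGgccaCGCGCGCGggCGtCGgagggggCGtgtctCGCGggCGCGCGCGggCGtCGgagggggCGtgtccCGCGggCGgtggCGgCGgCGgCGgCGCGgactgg
This stretch held 36 CpG. Over the 300 bases of the RefSeq promoter entry, G and C made up 76.0%, and the observed over expected CpG ratio of 1.08 was at the 94.9th percentile of 15344 genes, whose median was 0.769. RefSeq entries were found for 9 of the 10 genes, all but RCOR2.

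**Figure D1:**
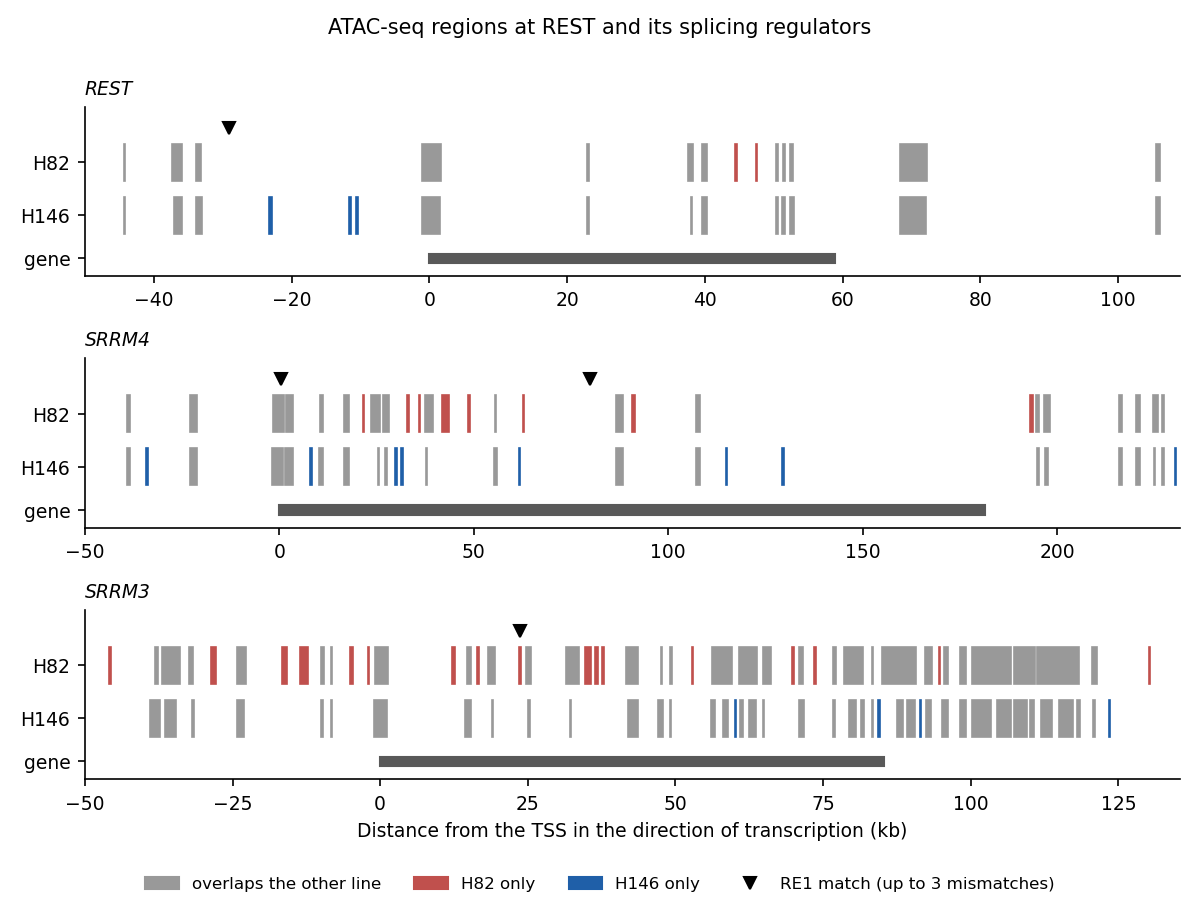
Accessible regions of H82 and H146 around REST, SRRM4 and SRRM3 by distance from the TSS in kb. Boxes are regions, grey where they overlap a region of the other line and coloured where they do not; dark bars are gene bodies and triangles RE1 matches with up to 3 mismatches. REST had 2 H82-only and 3 H146-only regions, SRRM4 8 of each, and SRRM3 17 and 4.

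SRRM4, at chr12:118981541-119163051 on the plus strand, was accessible at its TSS in both lines and differed between them in the gene body and downstream of it. The TSS region, 2824 bp long in H82 and 2747 bp in H146, covered the TSS and the exon 1 RE1, which matches at 17 of 18 fixed bases. A match with up to 3 mismatches was found within 1 kb of the TSS for 1.01% of all protein-coding genes. The intron 1 RE1, 79.9 kb from the TSS and also matching at 17 bases, was in no region and lay 6742 bases from the nearest in H82 and 6715 in H146. The same gene thus held a near-complete RE1 inside a listed region and another outside any, and no REST binding was measured.

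The SRRM4 promoter is shown for the same reason as that of REST (RefSeq, GRCh38.p14, chr12:118981291-118981540, plus strand, CpG in capitals).
SRRM4 promoter: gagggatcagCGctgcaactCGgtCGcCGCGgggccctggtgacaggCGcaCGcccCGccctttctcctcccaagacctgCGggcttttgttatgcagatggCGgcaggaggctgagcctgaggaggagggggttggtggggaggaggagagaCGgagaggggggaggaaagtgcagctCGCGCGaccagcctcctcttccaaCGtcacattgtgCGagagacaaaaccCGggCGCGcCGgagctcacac
It held 20 CpG, and the observed over expected CpG ratio of its 300-base entry, 0.782, was near the median of all genes.

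H82 and H146 each had 26 regions around SRRM4, 18 of them overlapping the other line, but they covered 10.4% of the window in H82 and 7.64% in H146. The numbers were equal and the widths were not. The gene body was covered to 10.1% in H82 and 6.95% in H146, the 50 kb downstream to 12.8% and 7.91%, and the 50 kb upstream to 8.91% and 9.88%. At 24.6 kb from the TSS the H82 region measured 2259 bp and the H146 region overlapping it 302 bp. At 27.3 kb H82 had 1526 bp against 715 bp in H146, and at 38.5 kb 2242 bp against 484 bp. Downstream, in HSPB8, an H82 region of 1312 bp overlapped one of 219 bp in H146. The 3 sites at 24.6 to 38.5 kb are in intron 1. The other overlapping regions centred in intron 1 were wider in H146. At 10.8 kb H82 had 653 bp against 1110 bp in H146, and at 55.6 kb 408 against 677 bp. At 2.5, 17.3, 87.4 and 107.6 kb the H82 widths were 1761, 1167, 1644 and 1116 bp. Those in H146 were 1882, 1325, 1671 and 1192 bp. In intron 1 H82 also had its widest SRRM4 region without a counterpart, 1688 bp at chr12:119023379-119025066, 42.7 kb from the TSS. In H146 the widest region without a counterpart was 520 bp, at chr12:119011310-119011829, also in intron 1. An H146-only region of 457 bp covered an annotated alternative start 8.19 kb from the TSS. The upstream regions at -38.8 and -22.1 kb, by contrast, were present in both lines with 956 and 1741 bp in H82 and 970 and 1789 bp in H146.

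From the widest H82-only region of SRRM4, 300 bases are shown as an intronic stretch listed in H82 and absent from the H146 list, chosen for the most E-box words (hg38, chr12:119023965-119024264, plus strand). The stretch held only 1 such word, CAGATG at its first bases, marked in capitals. The whole region held 2 E-box words, counting CAGATG and CAGCTG on both strands.
SRRM4 intron 1, H82 only: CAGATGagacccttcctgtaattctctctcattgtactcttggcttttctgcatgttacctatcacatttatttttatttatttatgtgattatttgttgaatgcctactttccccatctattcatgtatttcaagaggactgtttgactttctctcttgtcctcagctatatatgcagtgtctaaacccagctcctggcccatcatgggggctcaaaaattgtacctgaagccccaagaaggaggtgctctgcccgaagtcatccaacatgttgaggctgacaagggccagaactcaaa

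SRRM3, at chr7:76201896-76287288 on the plus strand, had more accessible chromatin than SRRM4 in both lines, and more in H82. Regions covered 33.8% of its window in H82 and 21.0% in H146, which put it at the 94.6th and 90.2nd percentiles of all genes. The gene body was covered to 28.9% and 15.0%, and the 50 kb upstream to 22.9% and 13.6%. The 50 kb downstream, which holds the HSPB1 TSS, was the most covered, at 53.1% and 38.5%. In the whole window H82 had 46 regions, 17 of them without a counterpart, and H146 41, 4 of them without one. The TSS regions were of like width, at 2187 bp in H82 and 2167 bp in H146. Away from the TSS widths differed in both directions, with medians over the window of 688 bp in H82 and 792 bp in H146. At 32.6 kb 2341 bp in H82 stood against 200 bp in H146, and at 47.6 kb 236 bp in H82 against 792 bp. The widest H82-only region, 1444 bp, lay at -12.9 kb, and the widest H146-only region, 422 bp, in the last exon of the canonical transcript.

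The RE1 match of SRRM3, at 16 of 18 bases, was in an H82-only region of 212 bp, 23.7 kb from the TSS in intron 1. The nearest H146 region was 1405 bases away. Of 5 annotated SRRM3 transcript starts, all were in regions of H82 and 3 in regions of H146, the other 2 lying 33.1 and 80.7 kb from the TSS. Across the genome 22.8% of the 3165 RE1 matches were in a region of H82, 17.5% in a region of H146 and 14.7% in regions of both. Windows with such a match made up 20.6% of all genes, against 4 of the 10 genes here. Windows were not matched for length, so these shares are not a like comparison.

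RCOR1, RCOR2 and RCOR3, the corepressor genes that encode the CoREST scaffolds, had whole-window covered shares within 1.5 times of each other between the lines. RCOR1, at chr14:102592649-102730561, was covered to 14.3% in H82 with 36 regions and to 12.2% in H146 with 30. Its 12 H82-only and 6 H146-only regions were narrow, the widest measuring 542 and 328 bp. The TSS region of RCOR1 was wider in H146, at 3186 bp against 2530 bp in H82. The RCOR1 gene body was covered to 6.57% in H82 and 3.08% in H146, and the 50 kb upstream to 13.7% and 7.18%. The 50 kb downstream of RCOR1 went the other way, with 36.2% in H82 and 42.6% in H146. RCOR2, at chr11:63911230-63917164 on the minus strand, had the widest TSS region of the 10 genes in both lines, 7176 bp in H82 and 7737 bp in H146. That region took up more than the gene itself is long and placed RCOR2 at the 97.2nd and 98.3rd percentiles of TSS region widths. The RCOR2 window was covered to 17.3% and 16.8%, with 15 and 16 regions. An annotated RCOR2 start 4.86 kb into the gene was in a region in H146 only. RCOR3, at chr1:211258377-211316385, was covered to 10.7% and 9.41% with 17 regions in each line, and its TSS regions measured 3242 and 3250 bp.

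KDM1A and SIN3A, the demethylase of the CoREST complex and the scaffold of the SIN3 histone deacetylase complex, had more regions in H82. KDM1A, at chr1:23019443-23083689, was covered to 6.0% in H82 and 2.71% in H146, with 13 and 8 regions. Its TSS region began at the same base in both lines and was 2389 bp long in H82 and 1470 bp in H146. In both lines that region also covered the TSS of the neighbouring gene TEX46, 0.343 kb from that of KDM1A. Within the gene body H82 had 1 other region, 353 bp in intron 2, and H146 none. The widest H82-only region of the KDM1A window, 1500 bp, was by the TSS of the neighbouring gene LACTBL1 and not of KDM1A.

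SIN3A, at chr15:75369379-75455842 on the minus strand, had 26 regions in H82 and 5 in H146, covering 14.8% and 6.25%. Of the H82 regions 22 had no counterpart, and of the H146 regions 1, of 485 bp in exon 17. The TSS region itself hardly differed in width, 6368 bp against 6283 bp in H146. The H82-only regions were spread over the window, with 4 in the gene body, 8 upstream and 10 downstream, where 2121 bp in MAN2C1 was the widest. None of the SIN3A regions shared a boundary between the lines.

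PTBP1, at chr19:797075-812327 on the plus strand, showed the largest difference of the 10 genes. Regions covered 43.1% of its window in H82 and 13.5% in H146, a ratio of 3.19, with 41 and 17 regions. The TSS region was 3951 bp in H82 and 2911 bp in H146. Within the gene an H82-only region of 2034 bp, at chr19:804238-806271, covered 5 annotated alternative starts 7.31 to 8.43 kb from the TSS. Of the 28 H82-only regions 25 lay outside the gene body, and the neighbouring genes AZU1 and PRTN3, which encode neutrophil granule proteins, had TSS regions in H82 only.

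PTBP2, at chr1:96721665-96823738 on the plus strand, was the least covered of the 10 genes, at 2.76% in H82 and 1.86% in H146. It had 12 regions in H82 and 5 in H146, of which 3 in each line overlapped. The TSS regions measured 1656 and 1692 bp, and 9 H82-only regions of at most 722 bp were spread along the gene and its flanks. The H146-only regions numbered 2, the wider of 720 bp in intron 8. The RE1 match upstream of PTBP2, at 15 of 18 bases, was in no region.

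**Figure D2:**
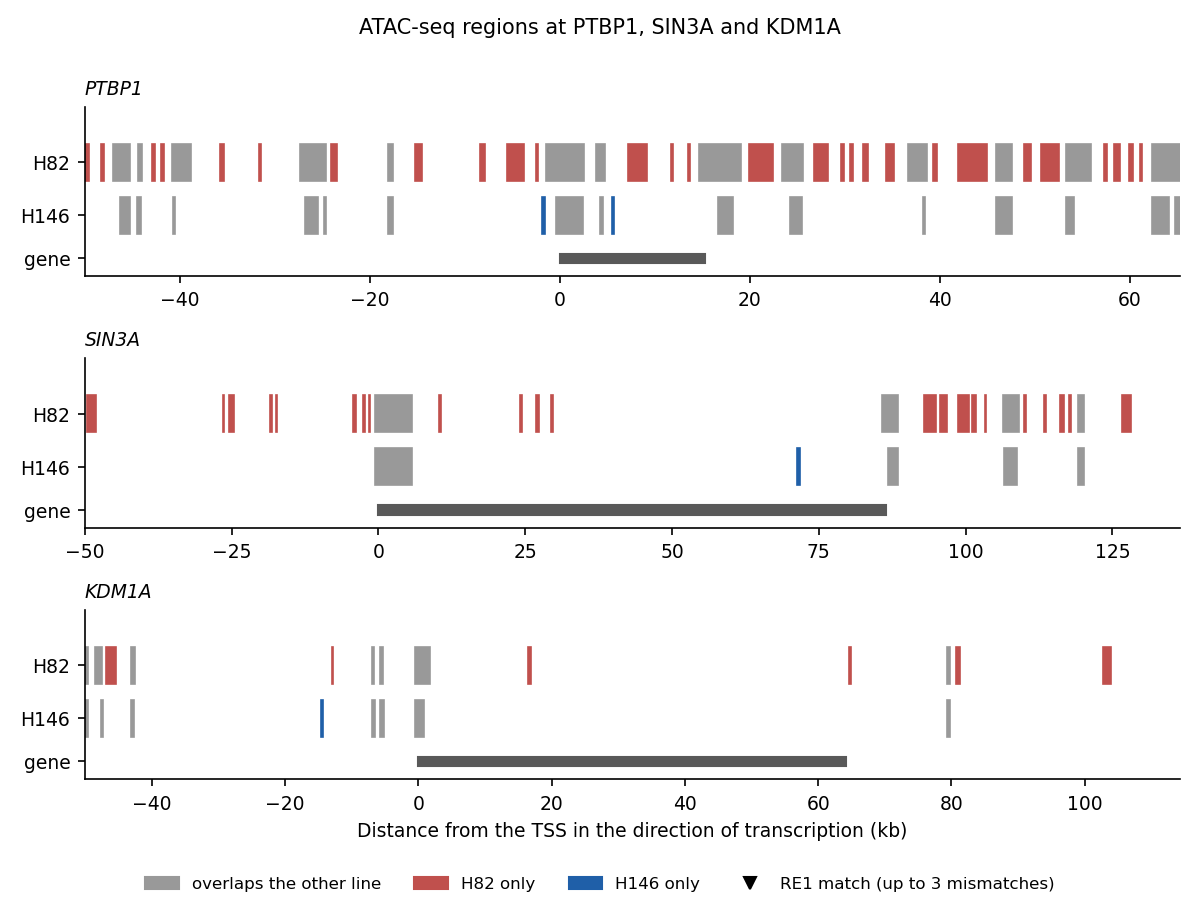
Accessible regions of H82 and H146 around PTBP1, SIN3A and KDM1A by distance from the TSS in kb, drawn as for REST. PTBP1 had 28 H82-only regions and SIN3A 22, against 2 and 1 in H146, while their TSS regions were present in both lines; none of the windows held an RE1 match.

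All 10 genes had a region over the TSS in both lines. Of all protein-coding genes, 75.4% had such a region, counted up to 1 kb from the start, in both lines, 5.09% in H82 only and 1.86% in H146 only. The covered share was higher in H82 for 9 of the 10 genes, against 63.7% of all genes, and more regions were found in H82 for 6 of the 10, against 62% of all genes. It was at least 1.5 times higher in H82 for 4 of the 10 (SRRM3, KDM1A, SIN3A and PTBP1), against 28.8% of the 19626 genes covered in both lines, and at least 1.5 times higher in H146 for none, against 5.1%. The medians over the 10 genes were 12.5% in H82 and 8.79% in H146, and over all genes 7.53% and 6.16%. After scaling each share to the coverage of the whole line, 6 of the 10 genes were higher in H82, and RCOR1, RCOR2 and RCOR3 turned to the H146 side with REST. No share of all genes is given under this scaling, so that count has no like background.

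**Figure D3:**
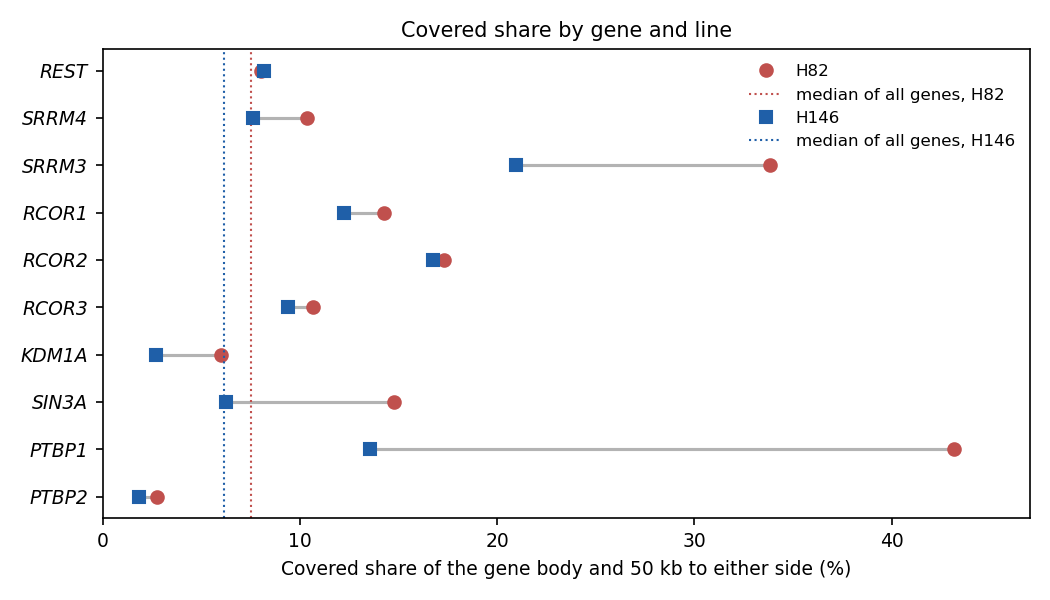
Covered share of the gene body and 50 kb to either side, in percent, for the 10 genes in H82 (circles) and H146 (squares), with the medians of all protein-coding genes as dotted lines. The lines lie within 1 percentage point for REST, RCOR2 and PTBP2 and farthest apart for PTBP1, at 43.1% and 13.5%.

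The lines' regions around these genes overlapped unequally. In H82, 134 of 246 regions (54.5%, exact 95% binomial interval 48.0% to 60.8%) overlapped a region of H146, and in H146, 147 of 180 (81.7%, 75.2% to 87.0%) overlapped a region of H82. These intervals cover counting error only. The shares of all regions were 59.3% and 70.5%. Overlapping regions were wider, with medians of 921.5 bp in H82 and 715 bp in H146, than line-only regions, with 355 and 314 bp. Without the regions that had an identical start or end, 44.6% and 72.3% overlapped; those regions overlap by construction. Also without them, the covered share stayed higher in H82 for 8 of the 10 genes, with differences of 10.6 percentage points at SRRM3, 2.73 at KDM1A, 8.51 at SIN3A, 26.5 at PTBP1 and 2.77 at SRRM4. At REST the difference was -0.05 points, and RCOR3 turned to -1.26 points. KDM1A then had no TSS region in either line, leaving 9 of 10 genes. The shares of all genes without such regions are not given.

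**Figure D4:**
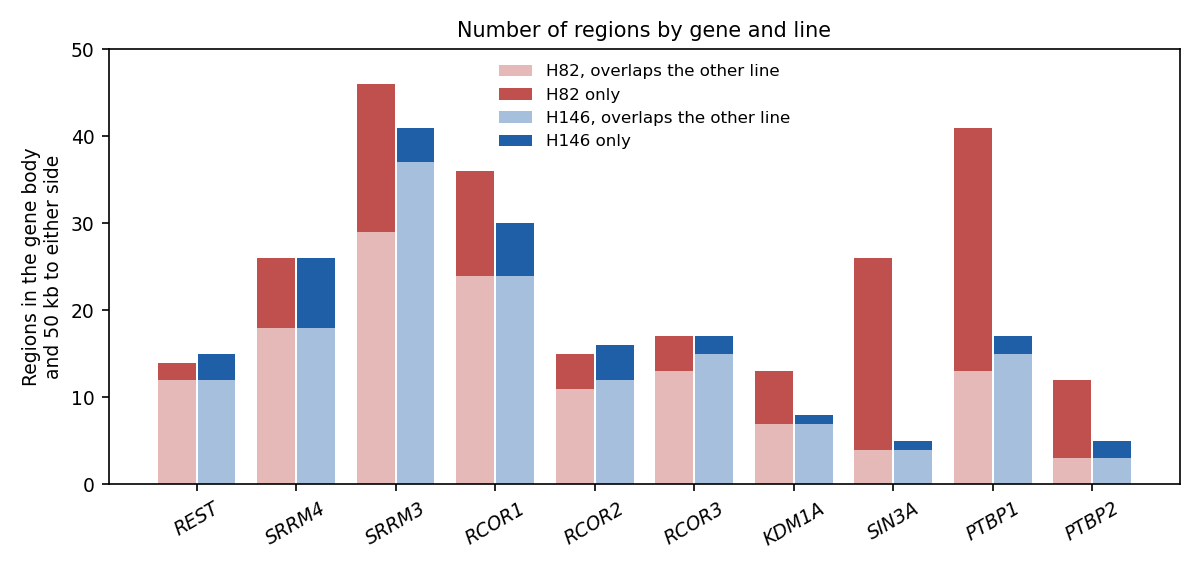
Number of regions in the gene body and 50 kb to either side for the 10 genes. Pale bars are regions that overlap the other line and dark bars those that do not; SIN3A (22 of 26) and PTBP1 (28 of 41) had mostly H82-only regions in H82.

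The ratio between the lines in each gene window was set beside that of the DNA around it. Both ratios lay on the same side of 1 except at REST, RCOR1 and RCOR2. Over the 1 Mb to either side of the window, the H82 covered share was 3.06 times that of H146 at SIN3A, 2.76 times at PTBP1, 1.93 times at KDM1A and 1.90 times at SRRM3. At PTBP1 the chromosome end cut the surroundings to 1.747 Mb in all. At these genes, in the same order, the windows themselves gave 2.36, 3.19, 2.21 and 1.61. At REST the surroundings gave 1.03 and the window 0.98. SRRM4 stood at 1.35 in its window and 1.22 around it, and PTBP2 at 1.48 and 1.47. RCOR1 departed most, with 1.17 in the window and 0.861 around it. RCOR2 gave 1.03 and 0.957, and RCOR3 1.14 and 1.11. Local DNA copy number, read depth and openness cannot be told apart in lists of regions.

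**Figure D5:**
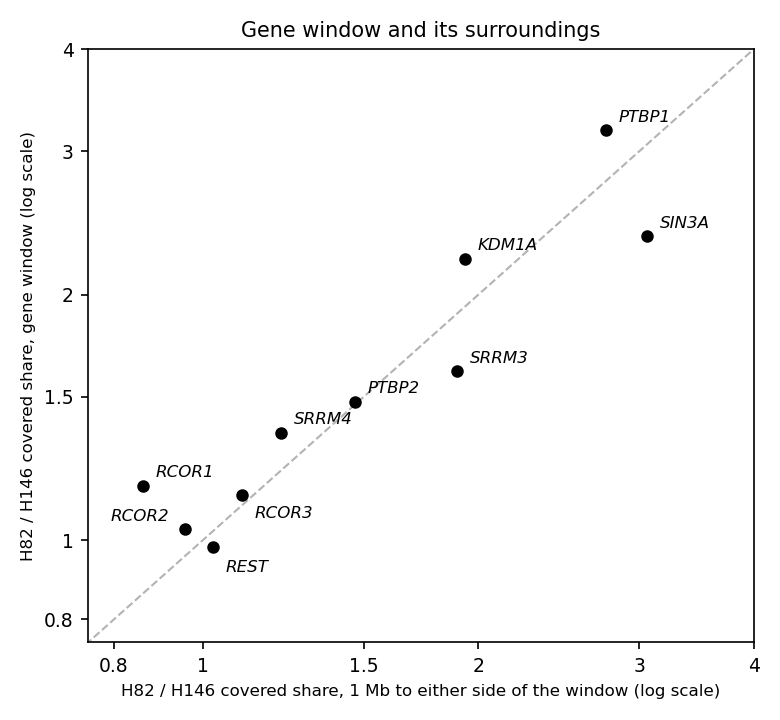
Ratio of covered shares, H82 over H146, in the gene window against the ratio in the 1 Mb to either side of it, cut to 1.747 Mb in all at PTBP1 by the chromosome end (log axes, 1 point a gene). The dashed line marks equal ratios; SIN3A and PTBP1 are high on both axes and REST and RCOR2 near 1 on both.

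NEUROD1 binds E-boxes and prefers the word CAGATG. This word and the E-box word CAGCTG were counted on both strands in the regions around the 10 genes. CAGATG came to 0.825 per kb in H82 and 0.804 in H146, and CAGCTG to 0.777 and 0.793. Over all regions of a line CAGATG stood at 0.932 in H82 and 0.807 in H146, and CAGCTG at 0.823 and 0.826. In the central 200 bp of the regions around the 10 genes, CAGATG turned to 0.955 in H82 and 1.0 in H146, and CAGCTG to 0.488 and 0.694. Over all regions the central 200 bp held 1.098 and 0.872 CAGATG and 0.929 and 0.952 CAGCTG per kb. The order of the lines for CAGATG thus depended on the stretch counted around the 10 genes, but not over all regions. In the regions around the 10 genes without a counterpart, H82 had 0.935 CAGATG and 0.670 CAGCTG per kb and H146 0.820 and 0.364, the last from 4 words.

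Of 13 other REST complex and REST turnover genes, 11 had a region at the TSS in both lines (75.4% of all genes). The other 2, HDAC2 and USP7, had no region within 1 kb of the outermost annotated start. The covered share was higher in H82 for 8 (63.7% of all genes) and at least 1.5 times higher for 5 (28.8%). HMG20B, a CoREST complex subunit on chromosome 19 like PTBP1, gave 40.8% in H82 and 11.1% in H146, and the deacetylase HDAC1 gave 16.8% and 6.28%. HDAC2 gave 5.79% and 3.19%, and none of the 13 was at least 1.5 times higher in H146. Of 11 other neural and microexon splicing factors, all had a TSS region in both lines, and 4 had the higher share in H82, against the same 63.7% of all genes. RBFOX1 (1.65% and 0.82%) and ELAVL4 (6.05% and 3.67%) were the 2 at least 1.5 times higher there, against 28.8%.

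Of 17 genes known to carry an RE1, 15 had a TSS region in both lines (75.4% of all genes), and GRIA2 and CALB1 in neither. The share was at least 1.5 times higher in H82 for NPPA (12.4% and 6.34%), SYP (22.8% and 13.2%) and GRIN1 (58.0% and 37.3%), 3 genes against a background of 28.8%, and in H146 for SYT4 (4.91% and 9.23%), 1 gene against 5.1%. Their windows held 26 RE1 matches, with at least 1 in each of the 17, as their choice implies. Of these, 20 were in a region of H82 and 18 in a region of H146, against 2 and 1 of the 5 matches around the 10 genes. Of all 3165 matches in the genome, 22.8% were in a region of H82 and 17.5% in a region of H146.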

How the data were processed

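ATAC-seq regions were taken from 13 samples of H82 and H146. Per the study's methods, reads were trimmed (Trim Galore 0.4.4) and aligned to hg38 (Bowtie2 2.3.4), duplicates were removed, and MACS2 peaks of all samples of a line, after blacklist removal, were merged within 500 bp. The deposited values are region starts and ends in bp, with no counts or samples, and 0 columns per sample were left aside. Merging makes width more than that of a single site, and a region called in any sample is listed.

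Genes, transcripts and sequence were from GENCODE release 44 and hg38, and promoters from RefSeq. Coverage, overlap (at least 1 bp) and motif searches were computed with Python 3.11.15, numpy 2.4.6, pandas 2.3.3 and pysam 0.24.0, and tested on simulated data. The TSS is the outermost annotated start. Coordinates are 1-based. No test was run, because each line is 1 pooled list. All 10 genes are named; of other pathway genes, those with a TSS region in 1 line or at most 4 with the largest ratios of at least 1.5 in each direction; of neighbours, those with a TSS region in 1 line. HDAC2, USP7, GRIA2 and CALB1 were named for having none. Genes and lists were chosen with earlier results of these data known. Results for some genes are not reported here.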

Additional observations from a re-analysis of the deposited data

How the results depend on the processing

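No paired analysis was possible because the lists are pooled and carry no replicate, and for the same reason no replicate could be left out in turn. Settings that drop regions with an identical start and end, or an identical start or end, were chosen after seeing the data. The median covered shares of the 10 genes in H82 and H146, and their difference in percentage points, became 10.7%, 7.45% and 3.30 with regions of at least 500 bp, 9.44%, 7.26% and 2.18 with 10 kb flanks, 11.7%, 7.46% and 4.20 with 100 kb flanks, 10.7%, 7.56% and 3.16 without regions at other TSSs, 11.9%, 8.07% and 3.87 without regions of identical start and end, and 9.54%, 6.34% and 3.20 without those of an identical start or end. Region numbers were 138 and 102 at 500 bp, 121 and 89 with 10 kb flanks, and 391 and 284 with 100 kb flanks. The overlapping share was 38.6% in H82 and 52.8% in H146 when an overlap of at least 50 percent of both regions was required, and 44.6% and 72.3% without identical starts or ends. RE1 matches numbered 3 with up to 2 mismatches, 17 with up to 4, and 3 with 10 kb flanks, and CAGCTG in H82 came to 0.488 per kb in the central 200 bp, where all H82 regions held 0.929. REST turned to 0.90 points higher in H82 with 10 kb flanks, RCOR2 to -0.14 points with 100 kb flanks, and RCOR3 to -1.26 points without an identical start or end. Scaled to the line, RCOR1, RCOR2 and RCOR3 turned to -0.42, -2.64 and -0.59 points; the causes were not tested. H82 had the higher share for 6 to 10 of the 10 genes over these settings. Shares of all genes at these settings are not given, so these counts have no like background. Depth per library was unknown, so a missing region does not show closed chromatin.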
